A study of Mus musculus with 18 samples.

Results

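The genes described here are those whose change over 5 days of interleukin-3 (IL-3) differed between FDH cells carrying the P248L form of the IL-3 receptor alpha chain and FDH cells carrying its wild-type form. For each gene the day 5 response of a line is the log2 fold change of day 5 over untreated cells, and the difference is the P248L response minus the wild-type response. Of 23329 genes in the count files 11879 had enough reads to be tested, and 3369 of these (28.4%) differed at a Benjamini-Hochberg adjusted p under 0.05 in edgeR's quasi-likelihood test. The difference was positive for 1670 genes (14.1%) and negative for 1699 (14.3%). Without scaling beyond library size the split was 2688 positive to 1073 negative, and the median difference of all tested genes was 0.25 in place of -0.02.

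FDH cells are immortalised cells from fetal liver of BALB/c mouse embryos at E14.5. They were made from mice lacking both the common beta chain βc and the mouse-specific chain βIL-3, and all groups were transduced with βc. The P248L line also received IL3Rα with the change P248L, called the Site 4 mutant in the title of the series, and its control line received wild-type IL3Rα. RNA-seq libraries of 4 groups, 3 in each and 12 of 18 in all, were compared: P248L at day 5, P248L untreated, wild-type at day 5 and wild-type untreated. Untreated cells grew in medium with 100 ng/ml SCF (stem cell factor, the ligand of the receptor Kit) and doxycycline, and day 5 cells had spent 5 days in 100 ng/ml IL-3 in a medium for which neither SCF nor doxycycline is listed. A response therefore takes in IL-3 being added and both of these being withdrawn, and with 1 line per receptor a difference between receptors cannot be told apart from a difference between lines. Whether replicates came from separate cultures is not labelled, and p-values measure no more than the spread between these samples, which may be technical. The 6 libraries of both lines at day 2 were not used to choose or sort genes and are read separately.

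The 12 libraries each held from 13844612 to 27181962 reads in genes. The first principal component (78.1% of variance, over the 1000 genes that varied most) parted day 5 from untreated cells, and the second (16.6%) parted the lines. P248L untreated libraries differed most among themselves, with a chi-square per degree of freedom of 29.5 to 200 per pair, against 4.86 to 35.9 for pairs in the other 3 groups. All 12 listed genes of haematopoietic identity were tested, but 12 of 15 listed hepatocyte, stromal and endothelial genes were below the filter on reads. All 15 were summed, tested or not. They gave 91.4 to 97.5 counts per 1e6 reads in genes (CPM) in P248L cells at day 5. In wild-type cells at day 5 they gave 137 to 146 CPM. In these bulk libraries fewer cells of a type and less RNA per cell cannot be told apart. Levels below are CPM after scaling by trimmed-mean factors, with the SD of n = 3 libraries where a mean is given, and log2 values carry the SE from edgeR.

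IL-3 binds its alpha chain, which then pairs with the beta chain, and the kinase JAK2 attached to the beta chain phosphorylates the transcription factor STAT5. In early blood cells this signal sustains survival and growth and allows differentiation into myeloid cells such as neutrophils, macrophages, basophils and mast cells. Type I interferons act through other receptors and factors such as STAT2 and IRF9, which act at the interferon-stimulated response element (ISRE) of antiviral genes.

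The response passed the threshold for 72.5% of tested genes in P248L cells, where 36% rose and 36.5% fell, and for 73.8% in wild-type cells, where 38.3% rose and 35.5% fell. Most of the 3369 genes responded less in P248L cells. In 1258 genes (10.6% of those tested) both lines changed the same way and the P248L change was smaller, which is called weakened here. Among these 677 rose and 581 fell, and the P248L response had a median of 53.97% of the wild-type response on the log2 scale (quartiles 41.3 to 64.82%). The rising ones had a median log2 response of 1.48 in P248L and 2.90 in wild-type cells, and the falling ones -1.15 in P248L and -2.28 in wild-type cells. A further 659 genes (5.55%) passed the threshold in wild-type cells alone and are called lost, 377 of them rising and 282 falling in wild-type cells. For 537 of the lost genes the 95% interval of the P248L response reached less than 50% of the wild-type response in that response's direction. For the rest these data do not tell a lost from a weakened response. The reach of the interval in the opposite direction was not checked, so a reversed response is not told from a lost one. Reversed responses, past the threshold in both lines with opposite signs, numbered 260 (2.19%), of which 150 rose and 110 fell in wild-type cells.

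Larger responses in P248L cells were fewer. In 656 genes (5.52%) both lines changed the same way and P248L cells more so, called stronger here, with 449 rising and 207 falling. The rising ones had median log2 responses of 2.74 in P248L and 1.42 in wild-type cells. Another 520 genes (4.38%) passed the threshold in P248L cells alone, 243 rising and 277 falling. In 16 genes (0.135%) neither response passed. Without the third P248L untreated library the stronger genes numbered 994 and the P248L-only genes 913.

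**Figure D1:**
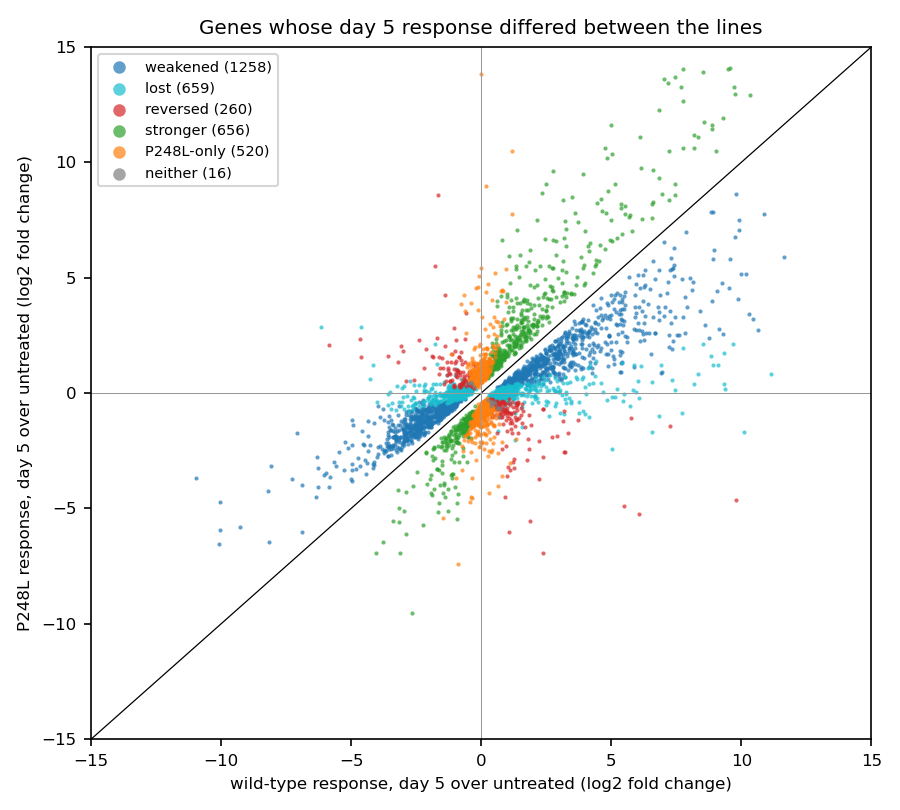
Fitted day 5 responses (log2 fold change of day 5 over untreated) of the 3369 genes, with P248L on the vertical and wild-type on the horizontal axis, 1 point a gene, coloured by class. The 1258 weakened genes lie between the diagonal of equal responses and the horizontal line at 0, and the 656 stronger genes lie beyond the diagonal. Where a group held no reads the fold depends on the fit and is no bound.

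The difference of responses equals the gap between lines (P248L over wild-type) at day 5 minus the gap before IL-3, so each gene was sorted by which gap passed the threshold. Over all tested genes the gap passed for 47% at day 5 and for 21.9% before IL-3. Of the 3369 genes, 2156 (64%) had a gap at day 5 only, 371 (11%) before IL-3 only, 648 (19.2%) at both and 194 (5.76%) at neither. Classes differed in this. Among falling weakened genes 80.7% had a gap at day 5 only, and among rising weakened genes 68.5%. Among rising stronger genes 41% had one at day 5 only, 25.2% had one before IL-3 only and 29.8% had both. The count of gaps before IL-3 depended on single libraries. It was 2604 genes with all 12, 5266 without the third P248L untreated library, and 1537 without the first and likewise without the third wild-type untreated library. The genes with a gap before IL-3 only then numbered 1164, 190 and 178, and those with both 1195, 376 and 381. Those with neither numbered 117 and 121 without the first and the third wild-type untreated library.

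The day 2 libraries gave the gap between lines in other samples, where it passed for 28.2% of tested genes (11.1% higher and 17% lower in P248L cells). Of the rising weakened genes 252 (37.2%) were already lower in P248L cells at day 2 and 34 were higher. Rising stronger genes showed the opposite order. In 276 of them (61.5%) P248L cells were lower at day 2 and in 9 higher, although their rise by day 5 was larger in P248L cells. Leaving out any 1 of the wild-type day 2 libraries moved the count of day 2 gaps over all genes to between 1908 and 2225, against 3346 with all 6.

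**Figure D2:**
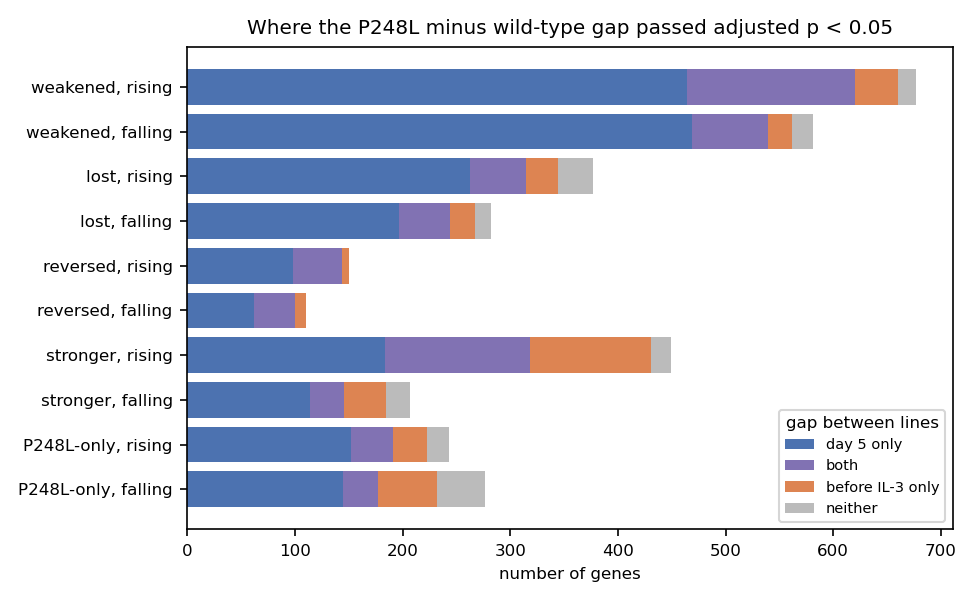
Number of genes of each class and direction (bars, horizontal axis in genes), split by where the gap between P248L and wild-type cells passed the threshold. Day 5 only is the widest part of every bar, and the part before IL-3 only holds 113 of the 449 rising stronger genes.

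Among genes with 10 or more reads in every group and 10 CPM or more in the highest, the 4 rising weakened genes of largest difference and 3 of the 4 rising lost ones were antiviral genes of the type I interferon response. All 35 listed genes rose in wild-type cells, and 26 rose and 2 fell in P248L cells. The difference was negative for 29 of the 35 and positive for 0, against 14.3% of all tested genes with a negative one. Its median over the list was -4.42 on the log2 scale, from a median response of 1.79 in P248L and 7.44 in wild-type cells. In 3 of the 35 genes a group held no reads. With these set at a bound of 3 reads over the group, median responses were 1.675 in P248L and 7.07 in wild-type cells. The median difference stayed at -4.42. Sorted by class, 21 were weakened, 6 lost and 2 reversed. The lists were drawn up with earlier results of these data known. Promoter windows of the antiviral genes Ifit1 and Rsad2 are shown because their responses are among the most weakened. They run from 250 bases before to 50 bases after the start site, from RefSeq on GRCm38.p6, at chr19:34640639-34640938 on the plus strand and chr12:26456403-26456702 on the minus strand. Capitals mark matches of the ISRE core (GAAA, any 2 bases and GAAA) on either strand, 2 in Ifit1 and 1 in Rsad2.
Ifit1: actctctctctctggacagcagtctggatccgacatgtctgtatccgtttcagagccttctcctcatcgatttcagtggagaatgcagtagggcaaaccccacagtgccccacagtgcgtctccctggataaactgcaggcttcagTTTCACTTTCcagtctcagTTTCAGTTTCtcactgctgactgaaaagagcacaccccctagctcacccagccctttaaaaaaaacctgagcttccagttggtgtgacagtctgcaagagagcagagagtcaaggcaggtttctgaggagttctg
Rsad2: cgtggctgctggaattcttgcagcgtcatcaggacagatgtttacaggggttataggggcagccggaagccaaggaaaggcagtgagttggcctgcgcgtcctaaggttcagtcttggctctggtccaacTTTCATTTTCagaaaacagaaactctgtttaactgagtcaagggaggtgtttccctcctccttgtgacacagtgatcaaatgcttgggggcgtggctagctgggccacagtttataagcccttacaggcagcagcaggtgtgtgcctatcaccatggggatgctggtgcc

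Rsad2 encodes viperin, an enzyme that makes an antiviral nucleotide, and lies on chromosome 12 from 26442743 to 26456452. In P248L cells it read 2.31, 1.85 and 2.42 CPM at day 5 and 0.34, 0.194 and 0.123 CPM untreated. In wild-type cells it read 258, 314 and 405 CPM at day 5 and 0.0961, 0.341 and 0.215 CPM untreated. The lines overlapped before IL-3 and stood far apart at day 5. Its log2 response was 3.23 ± 0.36 in P248L and 10.46 ± 0.31 in wild-type cells, a difference of -7.22 ± 0.68 (adjusted p = 1.6e-05). Ifit1, whose product binds viral RNA, read 1.99, 1.85 and 1.61 CPM in P248L cells at day 5, against 221, 276 and 272 CPM in wild-type cells at day 5. Untreated libraries of both lines read 0.303 CPM or less. The difference was -6.85 ± 0.61 (adjusted p = 1e-05). Isg15, a ubiquitin-like protein that is joined to other proteins during infection, averaged 2.57 ± 0.14 CPM in P248L and 120 ± 16.8 CPM in wild-type cells at day 5, with a difference of -6.38 ± 0.39 (adjusted p = 6.6e-07). Usp18, the protease that removes Isg15, averaged 3.26 ± 0.683 CPM in P248L and 253 ± 6.48 CPM in wild-type cells at day 5 and differed by -6.73 ± 0.47 (adjusted p = 1.7e-06). None of these 4 genes had a gap past the threshold before IL-3 or at day 2. They read 0.68 CPM or less in every untreated library and 0.987 CPM or less in every day 2 library. At such levels a gap can hardly be told. Of the 35 listed genes 11 were lower and 2 higher in P248L cells at day 2, against 17% and 11.1% of all tested genes.

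Genes of transcription factors on the same list moved the same way. Irf7, which amplifies interferon production, averaged 16.3 ± 2.14 CPM in P248L and 586 ± 102 CPM in wild-type cells at day 5, with a difference of -5.01 ± 0.35 (adjusted p = 1.7e-06). Irf7 was picked after its values were seen. Irf9 and Stat2, which act together on the ISRE, were weakened as well, with differences of -1.70 and -1.47.

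Within the same limits on reads and CPM, 3 antiviral genes had the largest differences of lost rises. Rtp4, on chromosome 16, encodes an interferon-induced protein that helps receptors reach the cell surface. It read 3.75, 2.86 and 3.28 CPM in P248L cells at day 5 and 3.03, 3.27 and 2.52 CPM untreated. It read 206, 217 and 206 CPM in wild-type cells at day 5 and 0.288, 0.378 and 0.258 CPM untreated. The P248L groups overlapped each other, and P248L cells stood above wild-type cells before IL-3 and below them at day 5. The difference was -9.20 ± 0.23 (adjusted p = 4.3e-10) and the P248L response 0.16 ± 0.14. Cmpk2, a mitochondrial nucleotide kinase whose gene adjoins Rsad2, averaged 3.63 ± 0.141 CPM in P248L cells at day 5 and 3.32 ± 0.62 CPM untreated. It averaged 165 ± 17.4 CPM in wild-type cells at day 5 and 0.95 ± 0.217 CPM untreated, a difference of -7.30 ± 0.25 (adjusted p = 7.8e-09). Mx2, a dynamin-like antiviral GTPase, averaged 0.396 ± 0.226 CPM in P248L and 48.2 ± 9 CPM in wild-type cells at day 5, a difference of -7.54 ± 0.87 (adjusted p = 6.6e-05). Ifit2, a relative of Ifit1, was reversed. Its levels were 7.12, 8.34 and 6.57 CPM in P248L cells at day 5 and 11, 15.7 and 19.3 CPM untreated, and 536, 684 and 672 CPM in wild-type cells at day 5 and 11.5, 11.4 and 12.1 CPM untreated. Ifit, Oas, Mx and Gbp genes have near-identical copies, so counts of single copies are uncertain.

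**Figure D3:**
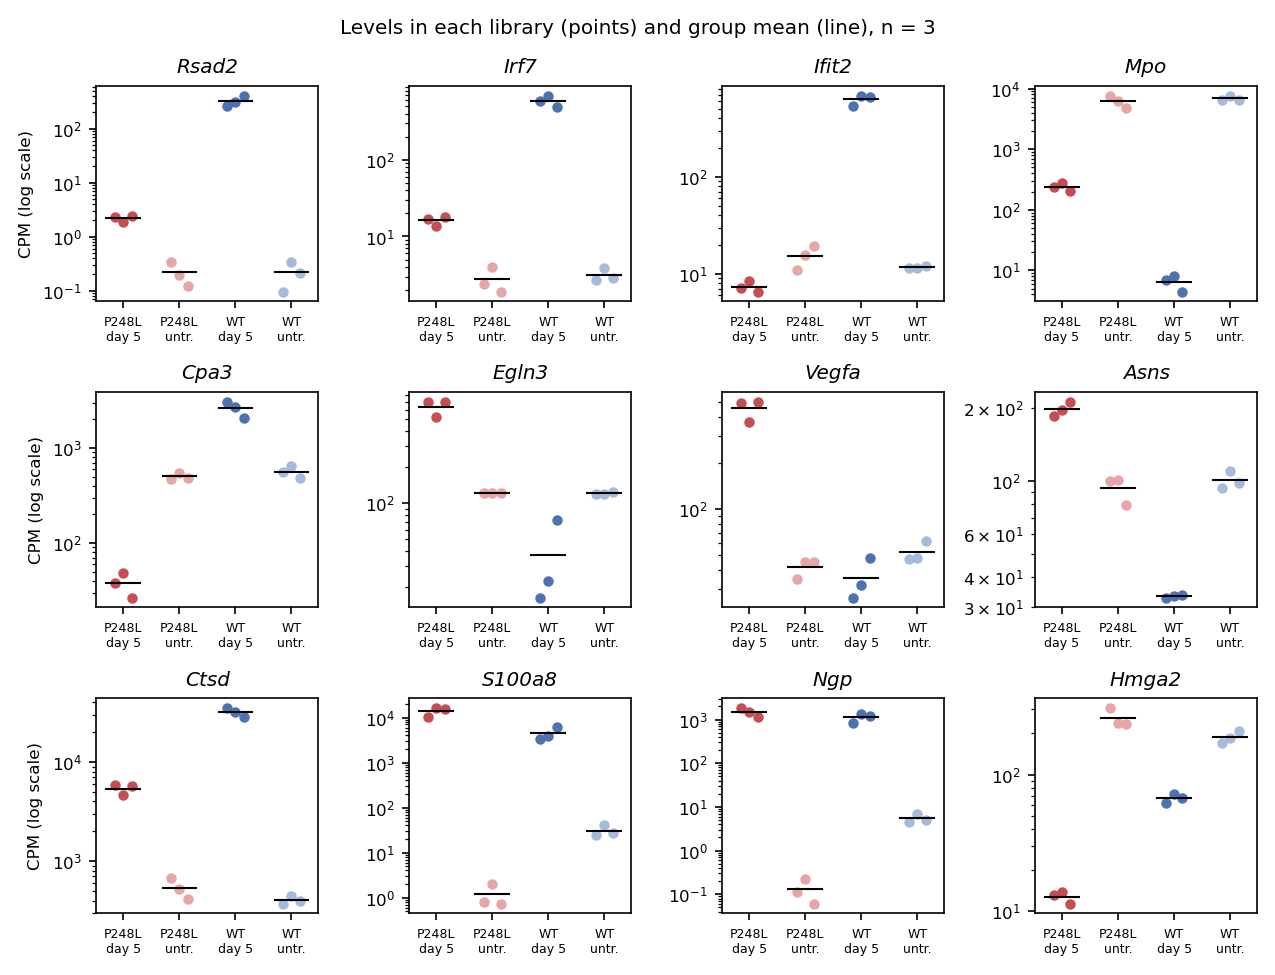
Levels of 12 genes in CPM on log axes, each with its own scale, for P248L day 5, P248L untreated, wild-type day 5 and wild-type untreated cells. Points are libraries and lines the mean of n = 3. Rsad2, Irf7 and Ctsd rise less in P248L cells, Ifit2, Cpa3, Egln3, Vegfa and Asns change in opposite directions, Mpo falls less, and S100a8, Ngp and Hmga2 change more.

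Interferon-inducible GTPases, which attack vacuoles that hold microbes, followed the antiviral genes. All 13 tested ones rose in wild-type cells, and 7 rose and 2 fell in P248L cells. The difference was negative for 10 (76.9%, against 14.3% of all tested genes) and positive for 0, with a median of -3.68. Irgm1 of the IRG family is shown because its response was reversed and its window holds 2 overlapping ISRE matches (chr11:48871371-48871670, minus strand, capitals as above).
Irgm1: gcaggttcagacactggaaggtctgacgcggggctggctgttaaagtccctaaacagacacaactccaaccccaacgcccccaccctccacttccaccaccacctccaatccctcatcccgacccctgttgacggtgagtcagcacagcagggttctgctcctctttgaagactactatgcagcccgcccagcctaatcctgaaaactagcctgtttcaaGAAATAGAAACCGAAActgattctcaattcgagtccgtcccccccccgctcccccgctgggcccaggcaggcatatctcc

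Irgm1 read 30.5, 28.7 and 30.8 CPM in P248L cells at day 5 and 51.1, 55.9 and 48.2 CPM untreated. In wild-type cells it read 377, 378 and 336 CPM at day 5 and 39.2, 39.9 and 40 CPM untreated. Within each line the day 5 and untreated libraries did not overlap, but the order was opposite. The difference was -3.98 ± 0.13 (adjusted p = 7.7e-09). Gbp2, a guanylate-binding protein, was weakened, at 7.77 ± 0.362 CPM in P248L and 71.8 ± 6.41 CPM in wild-type cells at day 5, with a difference of -3.68 ± 0.25 (adjusted p = 1.5e-06). Gbp9 averaged 1.23 ± 0.1 CPM in P248L and 71.5 ± 8.25 CPM in wild-type cells at day 5, with a difference of -4.75 ± 0.37 (adjusted p = 3.6e-06).

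Genes of MHC class I molecules and of the making and loading of their peptides had a negative difference in 11 of 13 and a positive one in 0. The negative ones are 84.6% of the list, against 14.3% of all tested genes. The median log2 response was -0.88 in P248L and 0.68 in wild-type cells. Of the 11 genes 5 had a gap between lines at day 5 only, 2 before IL-3 only and 4 at both. The median gap over the list was 0.64 before IL-3 and -1.09 at day 5. Untreated, the list summed to 1616 to 3017 CPM in P248L and 1205 to 1410 CPM in wild-type cells. Classes of the 11 genes were mixed. B2m, the light chain of the MHC class I complex, was lost, at 706, 546 and 671 CPM in P248L cells at day 5 and 668, 407 and 330 CPM untreated, and 3247, 3054 and 2213 CPM in wild-type cells at day 5 and 261, 316 and 285 CPM untreated. The P248L groups overlapped and the wild-type groups did not. Tapbp, which bridges the peptide transporter to class I, was lost too, with a difference of -2.69 ± 0.25 (adjusted p = 1.3e-05). Tap1, a subunit of that transporter, was reversed, at 53.6 ± 3.1 CPM in P248L cells at day 5 and 72.7 ± 6.92 CPM untreated, and 109 ± 5.45 CPM in wild-type cells at day 5 and 53.1 ± 2.14 CPM untreated. The immunoproteasome subunits Psmb8, Psmb9 and Psmb10 fell in P248L cells alone, with P248L log2 responses of -1.99, -1.10 and -1.80.

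Lysosomal genes were the other large weakened set. All 28 rose in wild-type cells, and 25 rose and 2 fell in P248L cells. The difference was negative for 23 (82.1%, against 14.3% of all tested genes) and positive for 0. Its median was -1.34, from median responses of 2.44 in P248L and 3.31 in wild-type cells. Ctsd, which encodes the protease cathepsin D, read 5892, 4617 and 5719 CPM in P248L cells at day 5 and 677, 521 and 418 CPM untreated. It read 35330, 31782 and 28448 CPM in wild-type cells at day 5 and 373, 445 and 393 CPM untreated. All day 5 libraries stood above all untreated ones in both lines. The difference was -2.98 ± 0.28 (adjusted p = 1.6e-05). Ctss, cathepsin S of antigen-presenting cells, averaged 869 ± 146 CPM in P248L and 4877 ± 491 CPM in wild-type cells at day 5, a difference of -3.03 ± 0.27 (adjusted p = 1.1e-05). Gaa, the lysosomal alpha-glucosidase, was reversed, at 47.6 ± 2.33 CPM in P248L cells at day 5 and 62.7 ± 4.68 CPM untreated, and 163 ± 16.1 CPM in wild-type cells at day 5 and 61.5 ± 5.34 CPM untreated.

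Of 12 genes that handle iron 8 had a negative difference (66.7%, against 14.3% of all tested genes) and 0 a positive one. Fth1, the ferritin heavy chain that stores iron, averaged 5721 ± 546 CPM in P248L and 22625 ± 1530 CPM in wild-type cells at day 5, with a difference of -2.68 ± 0.38 (adjusted p = 0.00032). Slc11a1, which moves iron out of phagosomes, averaged 14.5 ± 2.33 CPM in P248L and 84.6 ± 3.17 CPM in wild-type cells at day 5, with a difference of -2.83 ± 0.44 (adjusted p = 0.00053). Steap3, a ferric reductase, fell in P248L cells alone. Without scaling 5 of the 12 had a negative difference.

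Macrophage and monocyte genes moved both ways, 6 with a positive and 5 with a negative difference of 20 tested. Both directions together are 55% of the list, against 28.4% of all tested genes. Summed over all 26 listed genes they reached 5970 to 6792 CPM in P248L and 10764 to 11232 CPM in wild-type cells at day 5. Untreated they reached 1639 to 1932 CPM in P248L and 2014 to 2193 CPM in wild-type cells. Of the 20 tested genes 4 had no reads in at least 1 group. The part of these markers in other results was not tested. Fcgr1, the high-affinity IgG receptor, read 97.3, 81.1 and 102 CPM in P248L cells at day 5 and 19.5, 16 and 13.5 CPM untreated, and 266, 281 and 276 CPM in wild-type cells at day 5 and 1.58, 1.85 and 2.11 CPM untreated. It was higher in P248L cells before IL-3 and lower at day 5, and differed by -4.69 ± 0.22 (adjusted p = 1.1e-07). Csf1r, the receptor for the macrophage growth factor, had a stronger rise, with a gap before IL-3 only. At day 5 it averaged 223 ± 28.7 CPM in P248L and 208 ± 23.1 CPM in wild-type cells, and untreated 5.17 ± 0.284 CPM in P248L and 31.2 ± 3.48 CPM in wild-type cells. Ccr2, the chemokine receptor of inflammatory monocytes, read 1778, 1733 and 2006 CPM in P248L cells at day 5 and 1116, 1284 and 1500 CPM untreated. Wild-type cells held 168, 191 and 276 CPM at day 5 and 1563, 1491 and 1673 CPM untreated. Only wild-type cells at day 5 stood low, and the difference was 3.40 ± 0.26 (adjusted p = 3.2e-06).

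Primary granule genes, which immature neutrophils make first, kept a higher level in P248L cells. Of 11 tested 8 had a positive and 1 a negative difference (81.8%, against 28.4% of all tested genes). The median difference was 2.50, from median responses of -0.70 in P248L and -3.78 in wild-type cells. Summed over all 12 listed genes, levels at day 5 were 2245 to 2472 CPM in P248L and 1078 to 1127 CPM in wild-type cells. Untreated they were 7484 to 12170 CPM in P248L and 9654 to 10991 CPM in wild-type cells. Mpo, the myeloperoxidase, read 236, 281 and 202 CPM in P248L cells at day 5 and 7608, 6242 and 4869 CPM untreated. It read 7.03, 7.92 and 4.47 CPM in wild-type cells at day 5 and 6517, 7487 and 6602 CPM untreated. Untreated libraries of the lines overlapped and day 5 libraries did not. Its log2 response was -4.70 ± 0.25 in P248L cells and -10.04 ± 0.32 in wild-type cells, a difference of 5.34 ± 0.33 (adjusted p = 6.6e-07). Ctsg, the protease cathepsin G, averaged 18.6 ± 0.868 CPM in P248L and 1.22 ± 0.699 CPM in wild-type cells at day 5, a difference of 4.10 ± 0.41 (adjusted p = 2.3e-05). Ms4a3, a membrane protein of granulocyte precursors, averaged 102 ± 18.2 CPM in P248L and 9.45 ± 1.63 CPM in wild-type cells at day 5, a difference of 3.11 ± 0.25 (adjusted p = 5.3e-06). Elane, neutrophil elastase, was reversed. Levels were 12.1, 10.3 and 12.9 CPM in P248L cells at day 5 and 4.54, 1.88 and 1.84 CPM untreated, and 0.0622, 0.233 and 0.279 CPM in wild-type cells at day 5 and 11.4, 11.3 and 11.3 CPM untreated. The wild-type day 5 value rests on 9 reads.

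Secondary and tertiary granule genes, made later in neutrophil maturation, rose more in P248L cells in part of the list. Of 21 tested 10 had a positive (47.6%, against 14.1% of all tested genes) and 0 a negative difference. All 21 rose in P248L cells and 20 in wild-type cells. The median difference was 1.64, or 1.45 with genes lacking reads in a group set at their bound of 3 reads over the group. The median gap between lines over the list was -2.48 before IL-3, -5.44 at day 2 and 0.42 at day 5. Of the 10 genes with a positive difference 5 had a gap before IL-3 only, 4 at both times and 1 at day 5 only, and all 21 were lower in P248L cells at day 2. S100a9, part of the antimicrobial protein calprotectin, read 13302, 20263 and 17480 CPM in P248L cells at day 5 and 0.946, 2.33 and 0.553 CPM untreated. Wild-type cells held 3511, 4432 and 5995 CPM at day 5 and 28.3, 44 and 34.4 CPM untreated. P248L cells were lowest before IL-3 and highest at day 5, with no overlap. The difference was 6.57 ± 0.53 (adjusted p = 4.7e-06). At day 2 it stood at 49.5, 68.1 and 35 CPM in P248L against 7777, 9683 and 8572 CPM in wild-type cells. S100a8, its partner, differed by 6.27 ± 0.52 (adjusted p = 5.8e-06). Ngp, a neutrophil granule protein, read 1855, 1513 and 1144 CPM in P248L and 812, 1326 and 1231 CPM in wild-type cells at day 5, which overlap. Untreated it read 0.113, 0.227 and 0.0615 CPM in P248L against 4.56, 6.74 and 5.07 CPM in wild-type cells, and its difference of 5.57 ± 0.48 (adjusted p = 8.7e-06) came with a gap before IL-3 only. Rassf4, a Ras-association protein outside the list, had the same form, at 100 ± 8.16 CPM in P248L and 99.8 ± 11.3 CPM in wild-type cells at day 5 and 0.283 ± 0.0857 CPM in P248L and 11.2 ± 2.41 CPM in wild-type cells untreated.

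Some of the most abundant stronger genes had almost no reads in P248L cells before IL-3 and are given as levels. Ltf, the iron-binding lactoferrin, averaged 503 ± 109 CPM in P248L and 215 ± 45.4 CPM in wild-type cells at day 5, and untreated had 7 reads over 3 P248L libraries against 135 over 3 wild-type libraries. Capn2, a calpain protease, averaged 104 ± 5.26 CPM in P248L and 307 ± 13.5 CPM in wild-type cells at day 5, and untreated had 0 reads in P248L against 30 in wild-type cells. The stefins Stfa2 and Stfa2l1, inhibitors of cathepsins with near-identical copies, averaged 996 ± 90 and 1341 ± 89.2 CPM in P248L and 1123 ± 277 and 486 ± 102 CPM in wild-type cells at day 5. Slc15a3, a lysosomal peptide transporter, had 3 reads and Niacr1, the niacin receptor, 9 reads over the P248L untreated libraries, against 32 and 27 over the wild-type untreated libraries. Of all 3369 genes 227 had under 10 reads in at least 1 of the 4 groups.

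Genes of basophils and mast cells had a negative difference in 7 of 14 (50%, against 14.3% of all tested genes) and a positive one in 0. Summed over all 21 listed genes, levels at day 5 were 342 to 407 CPM in P248L and 2909 to 4051 CPM in wild-type cells. Untreated they were 1013 to 1184 CPM in P248L and 999 to 1193 CPM in wild-type cells. Cpa3, a mast cell carboxypeptidase, was reversed and made up most of that sum in wild-type cells at day 5. It read 38.2, 48.3 and 26.8 CPM in P248L cells at day 5 and 471, 548 and 489 CPM untreated. Wild-type levels were 3060, 2699 and 2079 CPM at day 5 and 558, 644 and 480 CPM untreated. The lines overlapped before IL-3 and were parted at day 5, with a difference of -5.96 ± 0.31 (adjusted p = 2e-07). At day 2 Cpa3 was already lower in P248L cells, at 255, 258 and 258 CPM against 925, 1112 and 795 CPM in wild-type cells. Hdc, which makes histamine, fell in P248L cells alone, at 19.4 ± 3.51 CPM at day 5 and 127 ± 14.9 CPM untreated, while wild-type cells averaged 52.1 ± 8.22 CPM at day 5 and 43.2 ± 4.91 CPM untreated. Cd200r3, an activating receptor of these cells, was lost, with a difference of -2.52 ± 0.18 (adjusted p = 2.5e-06). Gata2, a transcription factor of mast cells and of stem cells, fell in both lines and more in P248L cells, where it averaged 8.85 ± 0.804 CPM at day 5 against 52.6 ± 10.3 CPM in wild-type cells. Its difference was -2.46 ± 0.24 (adjusted p = 2.3e-05).

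Few eosinophil and erythroid genes were tested. Of 6 eosinophil genes 1 had a positive and 2 a negative difference (50%, against 28.4% of all tested genes). Prg2, the granule major basic protein, averaged 7.86 ± 1.88 CPM in P248L and 16.6 ± 4.69 CPM in wild-type cells at day 5, and untreated had 10 reads over the P248L and 2 over the wild-type libraries. Alox15, a lipoxygenase, was lost at low levels, 0.17 ± 0.0553 CPM in P248L and 1.06 ± 0.19 CPM in wild-type cells at day 5. Siglec5, a lectin that binds sialic acid, rose in P248L cells alone, to 27.9 ± 2.51 CPM at day 5 against 16.4 ± 2.18 CPM in wild-type cells at day 5. Of 4 erythroid genes 3 had a negative difference (75%, against 14.3% of all tested genes). Gata1, a transcription factor of erythroid and mast cells, was lost, at 0.288 ± 0.196 CPM in P248L and 2.83 ± 0.675 CPM in wild-type cells at day 5. Tfrc, the transferrin receptor, fell more in P248L cells, to 138 ± 25.1 CPM at day 5 against 229 ± 35.4 CPM in wild-type cells at day 5, with a difference of -1.01 ± 0.29 (adjusted p = 0.022). Of 12 fits with 1 library left out the difference missed the threshold in 2 for Prg2, 8 for Alox15, 7 for Siglec5 and 4 for Tfrc. It also missed it without scaling for Alox15 and Tfrc, and for Alox15 with the replicate block and with all 18 libraries.

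Ctla2a and Scin, outside the lists, were reversed as well. Ctla2a, a cysteine protease inhibitor with a near-identical copy, averaged 11 ± 1.66 CPM in P248L cells at day 5 and 245 ± 38.1 CPM untreated. In wild-type cells it averaged 207 ± 44.9 CPM at day 5 and 111 ± 18.6 CPM untreated. Scin, the actin-severing protein scinderin, averaged 0.247 ± 0.0702 CPM in P248L and 19.3 ± 12.7 CPM in wild-type cells at day 5. The 3 wild-type libraries at day 5 spread from 6.57 to 32 CPM and overlapped the untreated ones, at 12.7, 8.67 and 5.5 CPM. Its wild-type log2 response was 1.12 ± 0.44 (adjusted p = 0.036). Untreated P248L cells averaged 2.62 ± 0.531 CPM, already below wild-type cells (adjusted p = 0.021).

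Genes of mitosis fell in both lines and less in P248L cells. Of 19 tested all 19 fell in wild-type and 18 in P248L cells. The difference was positive for 16 (84.2%, against 14.1% of all tested genes) and negative for 0. The median response was -1.01 in P248L and -2.33 in wild-type cells. All 16 were weakened with a gap at day 5 only, and none of the 19 had a gap past the threshold at day 2. Cyclin B2, the gene Ccnb2, is shown because its window (chr9:70421505-70421804, minus strand) holds 2 matches of the cell cycle homology region TTTGAA, in capitals.
Ccnb2: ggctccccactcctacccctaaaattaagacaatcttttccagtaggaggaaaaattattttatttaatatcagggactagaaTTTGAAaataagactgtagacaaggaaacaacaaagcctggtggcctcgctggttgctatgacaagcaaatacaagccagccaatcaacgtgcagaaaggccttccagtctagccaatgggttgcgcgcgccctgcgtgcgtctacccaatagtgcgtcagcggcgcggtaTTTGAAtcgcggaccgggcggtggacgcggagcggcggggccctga

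Ccnb2, picked after its values were seen, read 58.9, 68 and 61.3 CPM in P248L cells at day 5 and 178, 136 and 111 CPM untreated. It read 22.6, 22.7 and 28.7 CPM in wild-type cells at day 5 and 121, 144 and 140 CPM untreated. Only the untreated libraries of the lines overlapped. The difference was 1.27 ± 0.23 (adjusted p = 0.0016). Nusap1, a spindle protein, averaged 102 ± 9.36 CPM in P248L cells at day 5 and 136 ± 0.885 CPM untreated, and 36.1 ± 2.84 CPM in wild-type cells at day 5 and 135 ± 13.5 CPM untreated, with a difference of 1.49 ± 0.15 (adjusted p = 2.5e-05). Tpx2 and Ccna2, which act in spindle assembly and in S phase and mitosis, differed by 1.36 ± 0.18 and 1.18 ± 0.16. Among 22 genes of G1/S and DNA replication 11 had a positive and 1 a negative difference, with a median of 0.51. Both directions together are 54.55% of the list, against 28.4% of all tested genes. Mcm7 of the replicative helicase averaged 75.8 ± 7.18 CPM in P248L and 31.4 ± 2.39 CPM in wild-type cells at day 5, a difference of 1.15 ± 0.16 (adjusted p = 0.00023). Mcm6 of the same helicase and Cdc6, which loads it onto DNA, were weakened too, with differences of 1.45 ± 0.20 and 1.12 ± 0.19.

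Inhibitors and partners of the cell cycle moved both ways, 6 with a positive and 4 with a negative difference of 18. Both directions together are 55.6% of the list, against 28.4% of all tested genes. Cdkn2a, which encodes the inhibitor p16 and Arf, read 1.76, 1.85 and 0.805 CPM in P248L cells at day 5 and 2.69, 1.98 and 1.6 CPM untreated. It read 61.4, 51.9 and 59.9 CPM in wild-type cells at day 5 and 9.56, 12.9 and 7.95 CPM untreated. P248L cells were lower at both times, and their response was lost, with a difference of -3.03 ± 0.39 (adjusted p = 0.00014). Ccnd1, cyclin D1, was lost as well, at 25.9 ± 2.21 CPM in P248L cells at day 5 and 25.5 ± 3.64 CPM untreated, and 61 ± 12.8 CPM in wild-type cells at day 5 and 17.6 ± 2.89 CPM untreated. Btg1, a brake on division, rose more in P248L cells, by 4.77 ± 0.20 against 3.11 ± 0.18 on the log2 scale in wild-type cells. Of 16 genes of the MYC network 7 had a positive and 1 a negative difference (50%, against 28.4% of all tested genes). Tfap4, a factor that MYC induces, averaged 8.86 ± 0.568 CPM in P248L and 1.89 ± 0.538 CPM in wild-type cells at day 5, a difference of 1.83 ± 0.28 (adjusted p = 0.0005). Odc1, the first enzyme of polyamine synthesis, had a weakened fall with a difference of 0.86 ± 0.14, and Mxi1, an antagonist of MYC, a stronger rise with one of 0.95 ± 0.16.

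Genes of glycolysis and hypoxia had a positive difference in 12 of 19 (63.2%, against 14.1% of all tested genes) and a negative one in 0. Of the 19, 17 rose and 1 fell in P248L cells, and 7 rose and 5 fell in wild-type cells. Median responses were 1.24 in P248L and 0.17 in wild-type cells. Egln3, an oxygen-sensing prolyl hydroxylase that the factor HIF induces, is shown because it had the largest difference of the list. Its window (chr12:54203825-54204124, minus strand) holds 1 match of the hypoxia response core ACGTG, in capitals.
Egln3: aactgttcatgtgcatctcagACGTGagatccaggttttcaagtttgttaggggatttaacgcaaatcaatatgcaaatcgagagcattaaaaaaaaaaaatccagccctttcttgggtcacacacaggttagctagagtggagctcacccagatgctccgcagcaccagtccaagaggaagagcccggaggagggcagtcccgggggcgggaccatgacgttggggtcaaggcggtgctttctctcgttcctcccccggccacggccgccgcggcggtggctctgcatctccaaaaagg

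Egln3 read 692, 518 and 697 CPM in P248L cells at day 5 and 122, 121 and 121 CPM untreated. In wild-type cells it read 16.4, 22.7 and 72.7 CPM at day 5 and 120, 120 and 124 CPM untreated. The untreated lines overlapped, all P248L libraries at day 5 stood above them and all wild-type ones below. The third wild-type library at day 5 was well above the others of its group. The difference was 4.10 ± 0.58 (adjusted p = 0.00029). Vegfa, the vascular growth factor, read 497, 372 and 503 CPM in P248L cells at day 5 and 34.7, 45 and 45 CPM untreated. It read 26.3, 31.8 and 47.8 CPM in wild-type cells at day 5 and 47.3, 47.7 and 62.1 CPM untreated. Wild-type groups overlapped, and P248L cells at day 5 stood above every other library. Its difference was 4.03 ± 0.31 (adjusted p = 3.4e-06). Gys1, glycogen synthase, and Pfkp, a phosphofructokinase, rose in P248L cells alone, to 159 ± 31.3 and 265 ± 20 CPM at day 5, against 43.5 ± 12.3 and 132 ± 10.7 CPM in wild-type cells at day 5. Ankrd37, a hypoxia-induced ankyrin protein, averaged 27.9 ± 5.13 CPM in P248L and 4.52 ± 4.12 CPM in wild-type cells at day 5. Its difference of 2.32 ± 0.67 (adjusted p = 0.022) missed the threshold in 3 fits with 1 library left out. At day 2 none of these 5 genes passed as higher in P248L cells, and Gys1 passed as lower, with a gap of -0.58 ± 0.19 (adjusted p = 0.044).

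Targets of the amino acid stress factor ATF4 had a positive difference in 10 of 18 and a negative one in 2. Both directions together are 66.7% of the list, against 28.4% of all tested genes. Median responses were 1.13 in P248L and -0.37 in wild-type cells. Asns, asparagine synthetase, is shown because its window (chr6:7693160-7693459, minus strand) holds 1 match of the C/EBP-ATF element TGATGNAA, in capitals.
Asns: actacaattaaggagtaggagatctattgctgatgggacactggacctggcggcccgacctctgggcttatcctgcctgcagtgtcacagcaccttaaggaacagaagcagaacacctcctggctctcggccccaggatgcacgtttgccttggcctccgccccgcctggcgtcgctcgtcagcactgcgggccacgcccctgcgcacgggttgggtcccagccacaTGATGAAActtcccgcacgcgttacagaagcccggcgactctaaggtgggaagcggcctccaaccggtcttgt

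Asns read 185, 196 and 212 CPM in P248L cells at day 5 and 99.6, 101 and 79.4 CPM untreated. It read 32.9, 33.3 and 33.8 CPM in wild-type cells at day 5 and 93.3, 110 and 98.3 CPM untreated. The untreated lines overlapped and changed in opposite directions. The difference was 2.68 ± 0.16 (adjusted p = 5.6e-07). Slc7a5, a transporter of large amino acids, was reversed too, at 194 ± 18.8 CPM in P248L and 42.4 ± 3.61 CPM in wild-type cells at day 5, with a difference of 2.42 ± 0.17 (adjusted p = 1.9e-06). Psat1 of serine synthesis fell in both lines and less in P248L cells, with a difference of 2.26 ± 0.19 (adjusted p = 5.9e-06). Ddit3, the stress factor CHOP, went the other way, with a weakened rise and a difference of -2.34. Sterol and fatty acid synthesis genes had a positive difference in 12 of 21 and a negative one in 0, with a median of 0.70. The positive ones are 57.1% of the list, against 14.1% of all tested genes. Sqle, squalene epoxidase, read 214, 215 and 216 CPM in P248L cells at day 5 and 131, 150 and 134 CPM untreated, and 93.2, 90 and 91.3 CPM in wild-type cells at day 5 and 120, 140 and 119 CPM untreated. Srebf2, the factor that drives sterol genes, averaged 224 ± 19.8 CPM in P248L and 125 ± 8.72 CPM in wild-type cells at day 5, and Fdft1, squalene synthase, 88.9 ± 7.92 CPM in P248L and 39.8 ± 2.2 CPM in wild-type cells at day 5. Both rose in P248L cells alone.

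**Figure D4:**
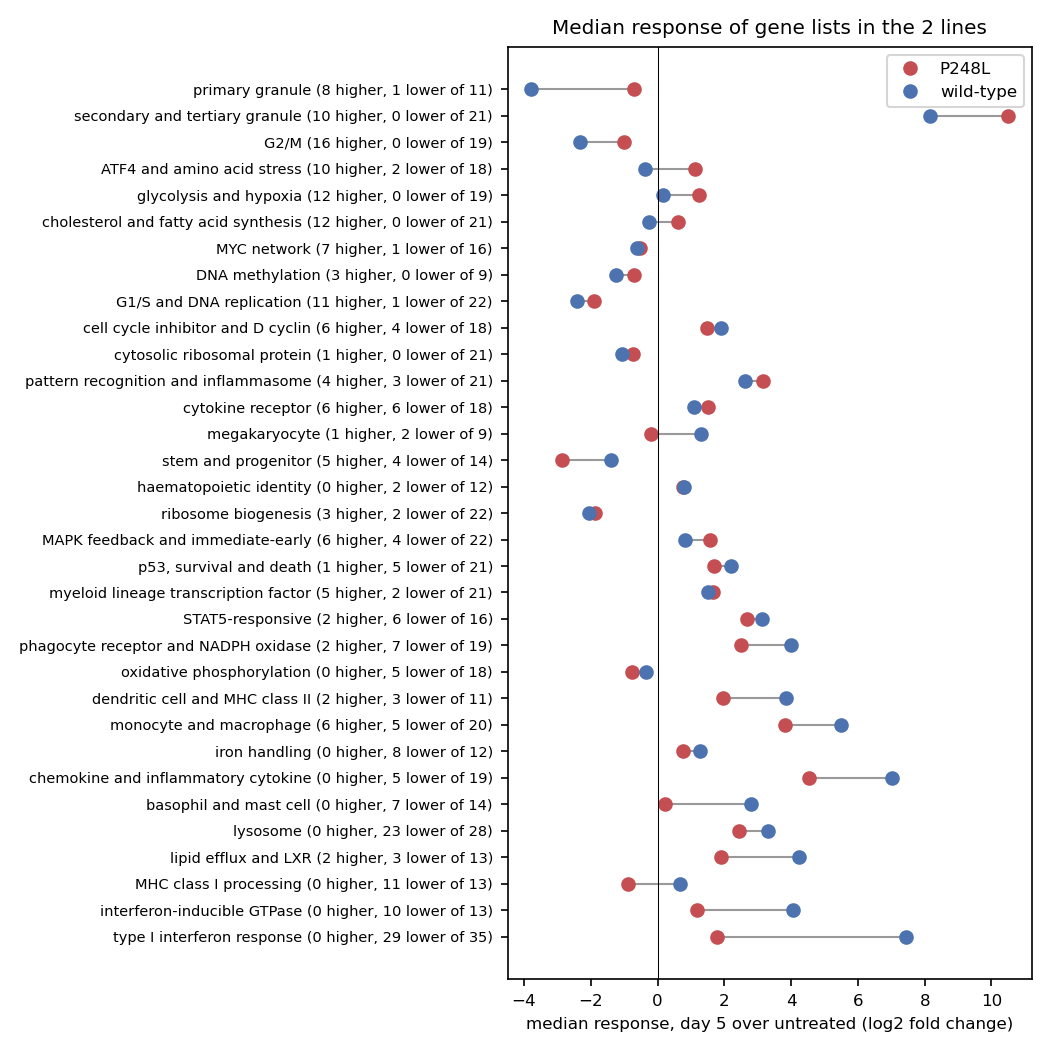
Median day 5 response (log2 fold change of day 5 over untreated, horizontal axis) of every gene list with 9 or more tested members, in P248L (red) and wild-type cells (blue), ordered by the median difference. Labels give how many members had a positive or negative difference past the threshold. The interferon list stands at 1.79 in P248L and 7.44 in wild-type cells, and the primary granule list at -0.70 in P248L and -3.78 in wild-type cells. These are medians of fitted values, and the fold of a gene without reads in a group is no bound.

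Of 14 tested progenitor genes 12 fell in each line, and 1 rose in P248L and 2 in wild-type cells. The difference was positive for 5 and negative for 4, together 64.3% of the list against 28.4% of all tested genes. Hlf, a transcription factor of stem cells, averaged 2.66 ± 0.27 CPM in P248L cells at day 5 and 149 ± 32.1 CPM untreated. In wild-type cells it averaged 0.168 ± 0.0707 CPM at day 5 and 108 ± 5.8 CPM untreated. Hmga2, a chromatin protein of fetal stem cells, read 13.1, 13.8 and 11.4 CPM in P248L cells at day 5 and 308, 240 and 235 CPM untreated. It read 62.2, 72.5 and 66.9 CPM in wild-type cells at day 5 and 171, 185 and 208 CPM untreated. P248L cells were above wild-type cells before IL-3 and below them at day 5, and the difference was -2.87 ± 0.19 (adjusted p = 1.1e-06).

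Of 16 tested genes known to respond to STAT5 6 had a negative and 2 a positive difference (50%, against 28.4% of all tested genes). The median difference was -0.35. The threshold was missed by Cish (0.27), Pim1 (0.28), Ccnd3 (0.14), Gadd45a (0.05), Socs1 (-1.64), Socs2 (-0.43), Id1 (-0.22) and Ccnd2 (-0.27). The log2 response of Cish was 5.06 in P248L and 4.79 in wild-type cells, and that of Pim1 3.5 in P248L and 3.2 in wild-type cells. Bcl2l1, the survival protein Bcl-xL, rose to 77.2, 77 and 86.9 CPM in P248L cells at day 5, against 207, 200 and 198 CPM in wild-type cells at day 5. Untreated it stood at 24.6 ± 5.14 CPM in P248L and 24.2 ± 2.52 CPM in wild-type cells, and the difference was -1.36 ± 0.20 (adjusted p = 0.00033). Pim2, a survival kinase, was lost, at 4.71 ± 1.21 CPM in P248L and 16.1 ± 6.44 CPM in wild-type cells at day 5. The positive differences were those of Myc, whose fall was weakened, and of Bcl6, a repressor of transcription. Bcl6, which STAT5 is known to hold down, rose more in P248L cells, at 33.1 ± 4.55 CPM in P248L and 14.4 ± 2.77 CPM in wild-type cells at day 5, with 8 reads over the P248L untreated libraries.

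Receptor genes were read in every group. Csf2rb, which encodes βc, read 270, 218 and 224 CPM in P248L cells at day 5 and 60.8, 66.9 and 61.7 CPM untreated, and 465, 440 and 439 CPM in wild-type cells at day 5 and 89, 78.5 and 75.4 CPM untreated. P248L libraries stood below wild-type ones at both times. The difference of -0.56 ± 0.15 (adjusted p = 0.017) missed the threshold without scaling and in 2 fits with 1 library left out. Its near-identical neighbour Csf2rb2 differed by -1.09 ± 0.16 (adjusted p = 0.00039). Il3ra averaged 2.72 ± 0.527 CPM in P248L cells at day 5 and 6.2 ± 2.78 CPM untreated, and 9.63 ± 1.42 CPM in wild-type cells at day 5 and 8.41 ± 2.19 CPM untreated. Its difference of -1.39 ± 0.43 (adjusted p = 0.032) missed the threshold in 7 of 12 fits with 1 library left out. The labels give neither the species of the transduced chains nor the deleted exons, so these levels check no genotype. For Csf2ra, Il5ra and Kit the difference did not pass, with 95% intervals of 0.05 to 0.89, -2.26 to 1.48 and -0.80 to 0.26. Epor, the erythropoietin receptor, was weakened at low levels, 1.26 ± 0.154 CPM in P248L and 6.27 ± 0.744 CPM in wild-type cells at day 5.

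Other genes show the forms a difference could take. Among lost genes, Vash2, a tubulin carboxypeptidase, read 2.77, 4.25 and 3.28 CPM in P248L cells at day 5 and 4.96, 5.77 and 4.18 CPM untreated, and 9.15, 12.3 and 11.2 CPM in wild-type cells at day 5 and 0.288, 0.0757 and 0.258 CPM untreated. Bpifc, of a family of lipid-binding proteins, stayed at 12.7 ± 1.56 CPM in P248L cells at day 5 and 10.4 ± 1.05 CPM untreated, and stood at 1.17 ± 0.232 CPM in wild-type cells at day 5 and 10.9 ± 0.752 CPM untreated. Neil3, a DNA repair glycosylase, averaged 43.7 ± 4.72 CPM in P248L and 12.1 ± 2.61 CPM in wild-type cells at day 5. Fkbp11, a prolyl isomerase of secretory cells, was lost and was low in P248L cells at both times, at 0.222 ± 0.13 CPM at day 5 and 0.276 ± 0.123 CPM untreated, against 1.14 ± 0.178 CPM at day 5 and 10.3 ± 1.36 CPM untreated in wild-type cells. Nebl, an actin-binding protein, spread over 6.66, 59.1 and 98.7 CPM in untreated P248L libraries, and its difference missed the threshold in some fits with 1 library left out.

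Reversed genes that fell in wild-type cells included 2 enzymes. Mgam, a maltase, read 59.9, 78.1 and 50.6 CPM in P248L cells at day 5 and 22.4, 16.6 and 22.6 CPM untreated. It read 6.53, 11 and 8.66 CPM in wild-type cells at day 5 and 110, 82.1 and 118 CPM untreated. F13a1, the coagulation factor XIII A chain of monocytes, averaged 829 ± 51.9 CPM in P248L cells at day 5 and 220 ± 36.6 CPM untreated, and 102 ± 20.7 CPM in wild-type cells at day 5 and 443 ± 21.8 CPM untreated. Both were lower in P248L than in wild-type cells before IL-3 and higher at day 5. The differences were 5.18 ± 0.32 for Mgam (adjusted p = 7.5e-07) and 4.03 ± 0.22 for F13a1 (adjusted p = 3.1e-07).

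Slc45a3 had the largest difference among falls that were stronger in P248L cells, within the same limits on reads and CPM. This sugar transporter averaged 0.942 ± 0.296 CPM in P248L cells at day 5 and 20.1 ± 3.12 CPM untreated, and 6.07 ± 1.12 CPM in wild-type cells at day 5 and 11.4 ± 2.19 CPM untreated. Tmem176b and Slco3a1, a membrane protein and an organic anion transporter, each differed by -2.88. Clec2i, a C-type lectin with close relatives, and Syne2, a giant protein of the nuclear envelope, rose in P248L cells alone. Syne2 averaged 15.8 ± 5.19 CPM in P248L and 25.6 ± 4.22 CPM in wild-type cells at day 5, and 1.89 ± 0.864 CPM in P248L and 17.5 ± 5.88 CPM in wild-type cells untreated. Gpr174, a lysophospholipid receptor, fell in P248L cells alone, at 5.18 ± 0.287 CPM at day 5 and 19.4 ± 6.98 CPM untreated, as did Xrcc6bp1 at 3.43 ± 0.949 CPM and Irak1bp1 at 2.62 ± 0.363 CPM at day 5.

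Promoter windows were found for 9507 of the 11879 tested genes (80%). The ISRE core stood in 3.82% of them, in 15 of 25 windows of the interferon list (60%) and in 7 of 7 of the GTPase list. By class it stood in 8.99% of rising weakened, 4.42% of rising lost, 8.73% of rising reversed and 3.16% of rising stronger genes. Among P248L-only genes it stood in 6.53% of rising and 6.78% of falling ones, and in the other falling classes in 2.38 to 4.12%. The cell cycle homology region TTTGAA stood in 14.7% of all windows, in 25.5% of falling weakened and 26.2% of falling lost genes, and in 11 of 16 windows of the mitosis list (68.8%). The C/EBP core TTGCNNAA stood in 10.4% of all windows, in 15.5% of rising stronger, 15.1% of rising reversed and 14.6% of rising P248L-only genes, and in 8.3 to 11.9% of the other classes. By list it stood in 8 of 19 windows of secondary and tertiary granule (42.1%), 3 of 8 of primary granule (37.5%) and 6 of 21 of lysosomal genes (28.6%). ACGTG stood in 29.6% of all windows and 14 of 18 of the glycolysis and hypoxia list (77.8%). TGATGNAA stood in 2.84% of all windows, in 5 of 16 of the ATF4 list (31.2%) and in 7.14% of falling reversed genes. The CLEAR core TCACGTGA stood in 2.31% of all windows and 3 of 21 of lysosomal genes (14.3%). The sterol regulatory element TCACNCCAC stood in 1.42% of all windows and 1 of 14 of the sterol and fatty acid list (7.14%). The STAT element TTCNNNGAA stood in 8.45% of all windows and in 5.78 to 11.5% of the classes. By list it stood in 4 of 7 windows of the GTPase list (57.1%), 3 of 11 of the STAT5 list (27.3%) and 5 of 25 of the interferon list (20%). All motifs were searched on both strands, and a match describes letters, not a bound site.

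**Figure D5:**
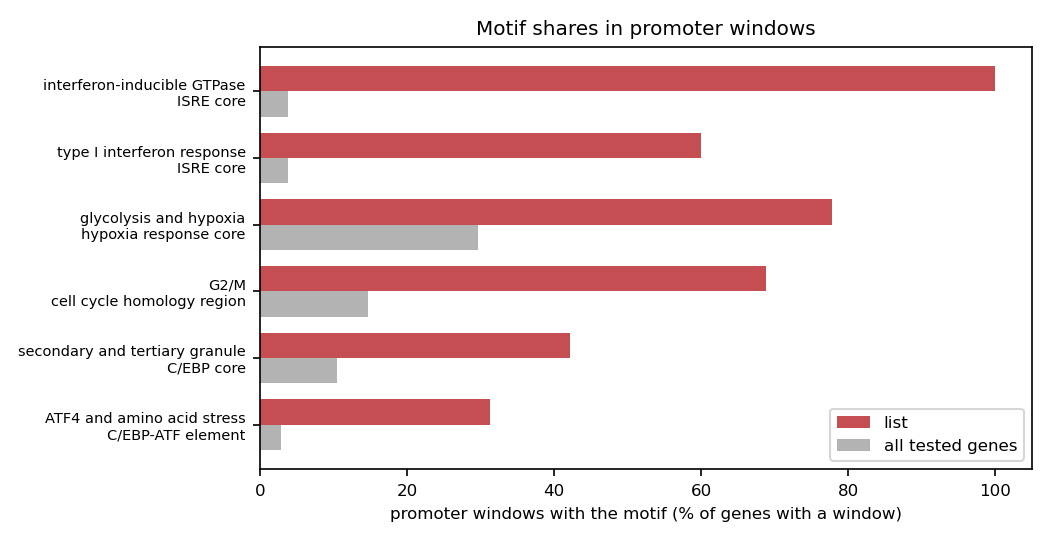
Share of promoter windows, in percent of genes with a window (horizontal axis from 0), that hold the named motif on either strand, for 6 gene lists (red) and for all tested genes (grey). The ISRE core stands in all 7 windows of the GTPase list and in 3.82% of all windows.

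At the threshold itself the last genes inside were Akr1c12, Yipf3 and Ccdc135, with differences of -2.28, -0.73 and 2.29. The first genes outside were Itpr1, Rnps1 and Ptpre, with differences of 0.96, 0.70 and 0.46.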

How the data were processed

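FDH cells were at passages 10 to 12, and their total RNA was sequenced. Per the submitters' processing notes the reads were aligned with STAR to mm10. No version or annotation is given in the sources used here. Deposited files hold, per library, the authors' raw read counts per gene for both strands together and for each strand. Only the strand with the reads was used. The opposite one had 1.17 to 2.54% of them. Rows for reads outside any single gene were left out. They held 27.9 to 37.5% of each of the 12 libraries compared and 38.1% of the third P248L day 2 library.

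Libraries were grouped as labelled. Counts of the 12 untreated and day 5 libraries passed filterByExpr (minimum count 10), were scaled by TMM and were modelled as 4 group means in edgeR 4.0.16 (quasi-likelihood F test, R 4.3.3, biological coefficient of variation 0.167). The 6 day 2 libraries were fitted alone. Benjamini-Hochberg adjustment ran over all 11879 genes, each SE was taken as the size of the log2 fold change divided by the root of F, and intervals are at 95%. Genes without reads in a group were set at a bound of 3 reads over that group where stated, which covers counting error only. Counts of gene lists and motifs carry no test.

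The members, the 37 lists, the classes and the tests were chosen with earlier results of these data known. Genes were named by rule: per class and direction the 4 of largest difference with 10 CPM or more in the highest group, 10 reads or more in every group and a common name, the 6 most abundant genes with fewer reads, the 3 members of smallest adjusted p of lists with 50% or more past the threshold, and the receptor genes. The ISRE, STAT and C/EBP motifs were listed first, and the others were chosen after values were seen. Promoters came from RefSeq (GRCm38.p6) and were matched by symbol.

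On simulated counts for 11715 genes 45% of 2-fold and 94% of 4-fold differences of responses were called, and 6.08% of calls were false. In that simulation 100 genes were changed at each fold, and 1 dispersion served all genes and libraries. These data held more differences and uneven spread between libraries, so the rates may not carry over. Alternatives were DESeq2 1.42.0, limma-voom (limma 3.58.1), other scaling factors and filters, all 18 libraries, both strands, a replicate block, stricter thresholds and each library left out. Leaving out Rn45s was added after seeing the data, and was done for the 12 libraries but not for the day 2 fit. Python 3.11.15 with matplotlib 3.10.9 drew the figures.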

Additional observations from a re-analysis of the deposited data

Results flagged for a closer look

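A difference of the day 5 response between the lines, tested as an interaction, marks each result here. It passed for 3369 genes. The genes below are the 4 per class and direction of largest difference among those with 10 or more reads in every group and 10 CPM or more in the highest. Each value is the P248L log2 response minus the wild-type one, and no cause was tested.

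Among rises weakened in P248L cells it was -7.22 for Rsad2, -6.85 for Ifit1, -6.73 for Usp18 and -6.38 for Isg15. Among weakened falls it was 5.34 for Mpo, 4.10 for Ctsg, 3.78 for Tmprss7, a membrane serine protease, and 3.57 for Hif3a, a relative of the hypoxia factor HIF. Lost rises gave -9.20 for Rtp4, -7.54 for Mx2, -7.30 for Cmpk2 and -6.28 for Vash2. Lost falls gave 3.65 for Nebl, 3.52 for Bpifc, 2.80 for Fkbp11 and 2.62 for Neil3.

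Reversed rises gave -6.82 for Ifit2, -5.96 for Cpa3, -5.39 for Ctla2a and -4.45 for Scin. Reversed falls gave 5.18 for Mgam, 4.10 for Egln3, 4.03 for Vegfa and 4.03 for F13a1.

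Stronger rises gave 6.57 for S100a9, 6.27 for S100a8, 5.57 for Ngp and 5.22 for Rassf4. Stronger falls gave -3.48 for Slc45a3, -2.88 for Tmem176b, -2.88 for Slco3a1 and -2.87 for Hmga2. Rises of P248L cells alone gave 2.997 for Clec2i, 2.54 for Syne2, 2.32 for Ankrd37 and 2.24 for Gys1. Falls of P248L cells alone gave -2.99 for Hdc, -2.97 for Xrcc6bp1, -2.40 for Gpr174 and -2.27 for Irak1bp1.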

How the results depend on the processing

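Of 3369 genes 99.4% were called again with DESeq2 size factors. DESeq2 called 4013, limma-voom 3711 and a fit of all 18 libraries 3207. Without scaling the difference was positive for 2688 and negative for 1073 genes, and the cause was not tested. A stricter adjusted p lowers counts of calls by construction. At an adjusted p under 0.01 there were 1895 differences (942 positive, 953 negative), 1295 gaps before IL-3, 693 weakened, 137 reversed, 315 stronger and 286 P248L-only genes, with a gap at day 5 only in 1372, before IL-3 only in 153, both in 253 and neither in 117. Counting as responses those past the threshold and of at least 1 on the log2 scale moves genes between classes by construction, and gave 805 weakened, 802 lost, 72 reversed, 372 stronger and 532 P248L-only genes. Tested against a log2 difference of 1, 679 passed (296 positive, 383 negative).

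With each library left out, differences numbered 2553 to 4595 (1269 to 2235 positive, 1238 to 2360 negative), P248L responses 8003 to 8979, wild-type responses 8240 to 9715, gaps at day 5 4672 to 7020, before IL-3 1537 to 5266 and at day 2 1908 to 4621. Classes numbered 963 to 1642 weakened, 504 to 945 lost, 198 to 367 reversed, 458 to 994 stronger and 376 to 913 P248L-only. Genes with a gap at day 5 only numbered 1658 to 2853, before IL-3 only 178 to 1164, both 376 to 1195 and neither 117 to 209.

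The replicate number as a block gave 3055 differences, 88.9% of the calls shared. Deviations of same-number libraries correlated at -0.397 to 0.375 over pairs of groups, and what the numbers mark is not labelled, so they were not taken to pair libraries.

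Of 2447 fits of named genes 2397 kept direction and side of the threshold, 0 changed direction, 49 missed it and 1 gained it (Csf2ra without scaling, 0.74). Ribosomal protein genes with a positive difference numbered 1 of 21, 8 without the first P248L untreated library and 7 without scaling. Depth limits genes of few reads, of which 227 had under 10 in a group.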

Other observations

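Secreted cytokines and chemokines rose in all 19 tested genes of that list in both lines, and 4 of them had no reads in a group. The difference was negative for 5 and positive for 0. That is 26.3% of the list, against 28.4% of all tested genes with a difference in either direction. Il18, an activator of interferon gamma production, averaged 30.4 CPM in P248L and 85.9 CPM in wild-type cells at day 5, a difference of -4.62 ± 0.59. Il6 and Cxcl10, an inflammatory cytokine and a chemokine that interferons induce, differed by -2.65 and -3.71 at levels of 1.82 and 1.62 CPM in P248L and 10.5 and 6.08 CPM in wild-type cells at day 5. Among lipid genes Abca1, which exports cholesterol, averaged 5.59 CPM in P248L and 85.5 CPM in wild-type cells at day 5, a difference of -4.08 ± 0.43. Gadd45g, a stress sensor, averaged 2.87 CPM in P248L and 72.3 CPM in wild-type cells at day 5. Each of these genes was chosen after its values were seen.

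Of 11 tested genes of dendritic cells and MHC class II 2 had a positive and 3 a negative difference. Both directions together are 45.45% of the list, against 28.4% of all tested genes. Cd74, the class II invariant chain, averaged 303 CPM in P248L and 43.0 CPM in wild-type cells at day 5, a difference of 2.49 ± 0.40, and H2-DMb1, which helps load class II, differed by 2.42. The integrin Itgax differed by -3.61, and the costimulators Cd80 and Cd86 by -1.89 and -2.71. The class II chains H2-Aa and H2-Eb1 had 1 and 0 reads in their lowest group, and their differences did not pass. Of 18 oxidative phosphorylation genes 17 fell in P248L and 9 in wild-type cells. The difference was negative for 5 of them (27.8%), positive for 0, and past the threshold in either direction for 28.4% of all tested genes. It was negative for 10 without the third P248L untreated library.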
